A study of Mus musculus with 12 samples.

Results

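RNA of Cd140a+ lung mesenchymal cells from Pear1-/- mice given bleomycin (bleo) was compared with RNA of the same gate from wild-type (WT) mice given bleo. The comparison took the 3 libraries labelled Pear1-/- bleo and the 3 labelled WT bleo, 6 of the 12 libraries of the series, and every gene in the deposited count table: 17418 of 40760 genes had enough counts to be tested. All animals were male, and the study describes young adult mice on a C57BL/6 background. The Pear1-/- line carries a knockout-first allele in every cell of the body, in which a splice-acceptor LacZ and Neo cassette sits in an intron and traps the transcript, so the genotype is not restricted to fibroblasts. Bleo was given into the trachea as an aerosol, and in the study's model lungs were taken weeks later. The other 6 libraries, 3 from WT and 3 from Pear1-/- mice given vehicle, entered the same fit and are set beside the bleo groups below. Cd140a is the PDGF receptor alpha chain, encoded by *Pdgfra*, and the sort was made on it. Whether the 3 libraries of a group came from separate mice is not stated in the labels, so the p-values below measure the spread between these libraries, which may be technical. The fit estimated a single spread per gene over all 12 libraries, so p-values of the bleo contrast also carry the spread within the vehicle groups. A gene that did not pass after bleo may therefore still differ between the bleo groups.

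PEAR1 is a transmembrane protein with EGF-like repeats, best known from platelets and endothelial cells, and the study concerns its role in fibroblasts, where it was linked to protein phosphatase 1. Pdgfra+ fibroblasts of the lung build the interstitial matrix: they secrete fibrillar collagens, which are hydroxylated and folded in the endoplasmic reticulum, trimmed outside the cell and crosslinked by lysyl oxidases. Bleo breaks DNA, injures the alveolar epithelium and draws in monocytes and macrophages, and during the repair that follows some fibroblasts take on contractile proteins and make scar matrix.

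Each bleo library held 8732810 to 10447101 counts. Libraries of the same bleo group were close to identical: the chi-square per degree of freedom of their counts over genes was 1.36 to 1.49 within groups and 86.6 to 94.7 between the genotypes. In vehicle, the WT libraries divided: replicates 1 and 3 had over 3 counts in 25994 and 26625 genes, and replicate 2 in 20643. The Pear1-/- vehicle libraries had over 3 counts in 19576 to 20792 genes and the bleo libraries in 17092 to 17580. WT vehicle replicates 1 and 3 also had the smallest totals of the series, 6702948 and 7036892 counts. The V genes of the immunoglobulin loci, whose mix depends on which B cell and plasma cell clones are present, gave the same division, since WT vehicle replicate 2 shared 97.0% to 97.2% of its V-gene make-up with the Pear1-/- vehicle libraries and 52.5% to 52.9% with the other WT vehicle libraries. The genotype contrast in vehicle and its interaction with treatment are therefore given below with and without WT vehicle replicate 2. Without it, the WT vehicle group is replicates 1 and 3 alone, and which of these libraries are the unusual ones was not tested. In flow cytometry the study took lung cells free of CD45, CD31 and CD326 as mesenchymal and counted Pdgfra+ cells among them, while the labels of these libraries name Cd140a alone, and the sorted RNA held transcripts of other cells. The leukocyte, epithelial, endothelial and immunoglobulin lists each had counts in every bleo library. Outside the immunoglobulin V genes, of which 35 of the heavy and 29 of the light chains had none in any of the 6, the listed markers at 0 in all 6 were *Elane* of neutrophil precursors and *Slc4a1* of red cells. In bulk RNA, fewer cells of a type and less RNA per cell cannot be told apart, and this holds for every result below.

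The targeted gene itself was not lower in the knockout. *Pear1* stood at 256, 239 and 266 normalized counts (counts divided by the library's size factor) in the WT bleo libraries and at 355, 372 and 344 in the Pear1-/- bleo libraries. The Pear1-/- libraries were the higher group, without overlap (log2 fold change 0.48, standard error 0.081, edgeR adjusted p = 7.54e-05), and in vehicle *Pear1* stood at 576, 545 and 519 in WT and 511, 501 and 547 in Pear1-/- libraries (log2 fold change -0.08, adjusted p = 0.49). Counts over the whole gene also take in transcript upstream of the cassette and do not say how much full-length transcript was left. They do not bear out the genotype labels, so every direction below is that of the libraries as labelled. None of the 13 tested genes of the list that holds *Pear1*, its relatives of the MEGF family and subunits of protein phosphatase 1 passed the criteria of a fold above 2 and an edgeR adjusted p under 0.05, and their median log2 fold change was 0.07. Of the catalytic subunits, *Ppp1cc* was lower (444 ± 14.7 in WT bleo and 236 ± 5.07 in Pear1-/- bleo, mean ± SD, n = 3, log2 fold change -0.92, edgeR adjusted p = 3.82e-05), *Ppp1ca* was slightly higher at 0.21, and *Ppp1cb* was at 0.07 with an adjusted p of 0.589.

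After bleo, 2616 genes passed both criteria between the genotypes, 15% of those tested. Of these, 1083 (6.22% of all tested) rose in Pear1-/- cells and 1533 (8.80%) fell. By adjusted p alone, 22.1% of all genes were higher and 24.0% lower, and in 62.9% the 3 libraries of one genotype did not overlap the 3 of the other. These shares are the background against which the counts of each gene group are read, and the median log2 fold change over all genes was -0.01. By counts, not scaled to gene length, the genes that rose with the highest levels were matrix and secreted genes together with immunoglobulin genes: *Igha*, *Col1a1*, *Igkc*, *Spp1*, *Col3a1*, *Jchain*, *Col1a2*, *Sparc*, *Fn1* and *Eln*. The highest among those that fell were antigen presentation and macrophage genes together with IgM: *Cd74*, *Apoe*, *Lyz2*, *H2-Aa*, *H2-Ab1*, *H2-Eb1*, *Ighm*, *Ctss*, *C1qb* and *Rgs1*.

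Among genes at a mean log2 CPM of 3 or more, immunoglobulin V genes and numbered gene models set aside, the largest rise was that of *Hal*, histidine ammonia-lyase, with pooled counts of 8 in the WT bleo and 510 in the Pear1-/- bleo libraries, a depth-scaled ratio of 58.4 (95% counting interval 29.4 to 136). *Tnn*, which encodes the matrix glycoprotein tenascin-N, came next, with 36.7, 38.8 and 33.4 normalized counts in WT bleo and 804, 849 and 862 in Pear1-/- bleo, all 3 knockout libraries far above the WT range (log2 fold change 4.51, standard error 0.15, edgeR adjusted p = 6.71e-14). In vehicle, *Tnn* had means of 52.3 in WT and 45.8 in Pear1-/- libraries, so the WT bleo level lay at or under the vehicle level. The chemokine receptor gene *Ccr10* (3.11), the EGF receptor ligand *Ereg* (2.94), the T-type calcium channel gene *Cacna1h* (2.90), the axon guidance gene *Sema3a* (2.85), the organic anion carrier gene *Slco4a1* (2.71), the retinoic acid hydroxylase gene *Cyp26b1* (2.52) and the pyruvate dehydrogenase kinase gene *Pdk4* (2.45) were also among the 15 largest rises (log2 fold changes in parentheses here and below). The 15 largest falls were led by *Bpifa1*, a secreted airway epithelial protein, at 525, 523 and 471 normalized counts in WT bleo and 33.7, 22.3 and 23.8 in Pear1-/- bleo (log2 fold change -4.25, standard error 0.29, edgeR adjusted p = 7.27e-08). Many of the others are genes of macrophages and other leukocytes: *Ms4a14* (-2.85), *Ms4a7* (-2.57), *Lilra5* (-2.73), *Tlr12* (-2.503), *Gpr34* (-2.36), *Kcna3* (-2.34), *Gbp8* (-2.34) and the inflammasome gene *Nlrp1b* (-2.22).

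**Figure D1:**
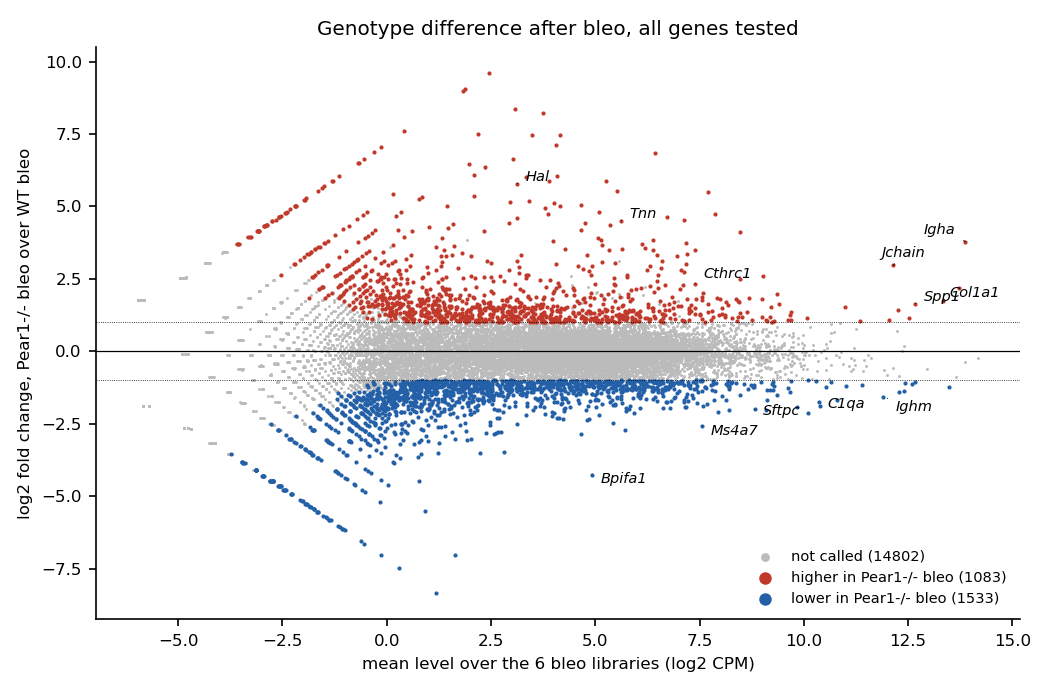
Log2 fold change of Pear1-/- bleo over WT bleo for the 17418 genes tested, against the mean level over the 6 bleo libraries in log2 CPM. Red points are the 1083 genes that rose, blue points the 1533 that fell and grey points the rest, dotted lines mark a fold of 2, and the parallel lines of points at the left are genes of a few counts.

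The fibrillar collagens, the rods of the interstitial matrix, rose in most cases. Of 10 tested members, 8 passed both criteria and all 8 were higher in Pear1-/- bleo, with a median log2 fold change of 1.39 over the list. The other members were *Col27a1*, higher by adjusted p at 0.53, and *Col11a2*, at -1.12 with an adjusted p of 0.0504. *Col1a1* and *Col1a2* encode the chains of type I collagen. *Col1a2* stood at 23639, 23073 and 23095 normalized counts in WT bleo and 62385, 64424 and 64207 in Pear1-/- bleo, a 2.71-fold difference with no overlap (log2 fold change 1.44, standard error 0.051, edgeR adjusted p = 1.58e-13). For *Col1a1* the log2 fold change was 1.73. *Col3a1*, type III collagen of distensible tissue, had 32332, 31816 and 32117 in WT bleo and 71311, 72865 and 72549 in Pear1-/- bleo (log2 fold change 1.16, standard error 0.047, edgeR adjusted p = 7.26e-13). The WT bleo level of *Col3a1* was below the vehicle level of both genotypes (37185 in WT and 36791 in Pear1-/- vehicle, means), whereas the Pear1-/- bleo level was above it. The minor fibrillar chains, which sit inside the type I fibril and set its diameter, rose too: *Col5a1* (1.61), *Col5a3* (2.06) and *Col11a1* (2.47). *Col11a1* rested on few counts in WT bleo, 39.5, 46.9 and 35.4, against 209, 235 and 239 in Pear1-/- bleo.

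Summed over the list, fibrillar collagen transcripts took 11594 to 11727 CPM (counts scaled to the library total) in WT bleo and 32414 to 33183 in Pear1-/- bleo, a ratio of 2.82. In vehicle the sum was 10187 to 11866 in WT and 9847 to 10303 in Pear1-/- libraries. WT bleo thus lay inside the WT vehicle range, and the Pear1-/- bleo libraries lay alone above it. The summed level of 6 genes that mark fibroblasts (*Pdgfra*, *Col1a1*, *Col1a2*, *Dcn*, *Lum* and *Pdgfrb*, of which the type I collagen genes stand in both sums) was 8568 to 8629 CPM in WT bleo and 24209 to 24869 CPM in Pear1-/- bleo, a ratio of 2.86. Leukocyte markers moved the other way: the pan-leukocyte and macrophage list summed to 20486 to 20717 CPM in WT bleo and 9503 to 9671 CPM in Pear1-/- bleo, a ratio of 0.465. Each of these sums separated the groups without overlap, with an exact permutation p of 0.1, two-sided, the smallest that 3 against 3 libraries allow. Within the fibroblast markers the differences were unequal: *Dcn*, decorin, was at 0.13 (adjusted p = 0.696), *Lum* at 0.62, *Pdgfra* at 0.80, *Pdgfrb* at 1.10 and *Col1a1* at 1.73 on the log2 scale. How much of each matrix difference went with the mix of cells in the gate was not tested.

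Network and beaded collagens divided. Of 20 basement membrane genes, 2 rose and 3 fell, with a median of 0.37. *Nid2*, a nidogen that joins laminin to collagen IV, rose from 141 ± 9.14 to 559.8 ± 41.7 normalized counts (log2 fold change 1.98, standard error 0.13, edgeR adjusted p = 3.51e-10), and *Col18a1* (1.002) also rose. The fallers are known from epithelium: *Col4a3* (-1.25) and *Col4a4* (-1.21), chains of the alveolar basement membrane, and *Lamb3* (-1.31), a laminin 332 chain. The major collagen IV chains *Col4a1* and *Col4a2* were higher by adjusted p without reaching a fold of 2, at 0.77 and 0.83.

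Among 18 beaded and fibril-associated collagens, 7 rose and 3 fell (median 0.84). *Col6a1* and *Col6a3*, chains of the microfibrils that surround cells, rose by 1.07 and 1.14, *Col12a1* by 1.40, *Col16a1* by 1.51, *Col8a2* by 1.56, and the anchoring fibril gene *Col7a1* by 1.597. *Col14a1*, a fibril-associated collagen of resting matrix fibroblasts, went the other way, with 1347, 1339 and 1254 normalized counts in WT bleo and 655, 631 and 597 in Pear1-/- bleo (log2 fold change -1.08, standard error 0.081, edgeR adjusted p = 2.55e-09). *Col6a5* and *Col6a6* fell at very low counts. The pooled counts of *Col6a5* were 16 and 0, which makes it at least 1.94-fold lower when 3 counts per library are taken as the floor, and *Col6a6*, whose call was lost when single libraries were left out, had means of 9.50 and 4.51.

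Part of the machinery that makes and hardens collagen rose. Of 31 genes for modification, chaperones and crosslinking, 11 rose and 1 fell, with a median of 0.73. *Lox*, lysyl oxidase, stood at 1585, 1636 and 1563 normalized counts in WT bleo and at 5803, 5534 and 5861 in Pear1-/- bleo (log2 fold change 1.83, standard error 0.076, edgeR adjusted p = 7.66e-13). In vehicle it was at means of 1397 in WT and 1292 in Pear1-/- libraries, so 3 of the 4 groups were close together and Pear1-/- bleo stood above them. The related oxidase *Loxl2* (1.49), the prolyl hydroxylase *P4ha3* (1.74), the procollagen proteinase *Tll1* (1.82), its enhancer *Pcolce* (1.04), the lysyl hydroxylase *Plod2* (1.04) and its chaperone *Fkbp10* (1.38) rose too. *Serpinh1*, which encodes the collagen chaperone HSP47, was higher by adjusted p at a smaller fold (0.60). The member that fell, *P3h2*, is a prolyl 3-hydroxylase best known from basement membrane collagen (log2 fold change -2.21, standard error 0.30, edgeR adjusted p = 5.60e-06).

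Matricellular proteins, which tune how cells hold the matrix, gave 9 rises and 3 falls among 26 genes (median 0.91). *Tnc*, tenascin-C of wounds, stood at 1831, 1766 and 1753 in WT bleo and 4537, 4640.0 and 4457 in Pear1-/- bleo, both above the vehicle means of 278 and 150.3 (log2 fold change between the bleo groups 1.34, standard error 0.23, edgeR adjusted p = 0.00104). *Postn*, periostin, rose by 1.20, *Fn1*, fibronectin, by 1.03, *Sparc* by 1.10, *Thbs2* by 1.64, *Spock2* by 2.02 and the CCN gene *Wisp1* by 1.39. *Ctgf* and *Thbs1* stayed under a fold of 2, at 0.91 and 0.95. The fallers were low in both groups: *Vtn*, *Nov* and *Comp* had means of 8.48, 19.7 and 32.3 normalized counts in WT bleo and 2.099, 8.67 and 15.2 in Pear1-/- bleo.

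Elastic fibre genes rose in 5 of 17 cases, with none that fell (median 0.76). *Eln*, elastin, had 9316, 8975 and 9342 normalized counts in WT bleo and 26676, 27184 and 26799 in Pear1-/- bleo (log2 fold change 1.53, standard error 0.074, edgeR adjusted p = 6.03e-12), and *Fbln2* rose from 1156 ± 54.1 to 3789 ± 90.9 (log2 fold change 1.70). *Ltbp1* (1.19), which stores latent TGF-beta in the matrix, and *Mfap2* (1.10) rose as well. *Fbln1* was lower by adjusted p, at -0.63. Of 22 proteoglycan genes, 3 rose: *Fmod*, fibromodulin, with 1269, 1308 and 1325 in WT bleo and 4457, 4640.0 and 4641 in Pear1-/- bleo (log2 fold change 1.80, standard error 0.11, edgeR adjusted p = 6.26e-10), and the cell-surface proteoglycans *Gpc4* (1.45) and *Sdc1* (1.32), the second of which also marks plasma cells.

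Enzymes that degrade matrix, and their inhibitors, moved in both directions. Of 34 metalloproteinases, plasminogen activators and inhibitors, 6 rose and 4 fell (median 0.46). *Mmp12*, macrophage elastase, fell from 15886, 16198 and 15422 normalized counts in WT bleo to 3709, 3637 and 3691 in Pear1-/- bleo, with vehicle means of 1101 and 804 (log2 fold change between the bleo groups -2.12, standard error 0.14, edgeR adjusted p = 5.83e-08). The collagenase gene *Mmp13* (-1.40) and the urokinase gene *Plau* (-1.33) fell too. The inhibitors *Timp1* and *Serpine2* rose, *Timp1* from 1214 ± 35.3 to 3443 ± 47.8 (log2 fold change 1.49) and *Serpine2* by 1.14, together with the disintegrin gene *Adam12* (2.07) and *Mmp23* (1.33). *Mmp2* and *Mmp14*, gelatinase and its membrane-bound activator, were higher at smaller folds, 0.55 and 0.83.

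Contractile and actin cytoskeleton genes rose in 16 of 36 cases and none fell, with a median of 0.94. *Acta2*, smooth muscle actin and the usual mark of a myofibroblast, rose by 1.52. *Des*, desmin, stood at 915, 908 and 939 in WT bleo and 3293, 3424 and 3288 in Pear1-/- bleo (log2 fold change 1.84, standard error 0.088, edgeR adjusted p = 5.03e-12). *Myl9*, the regulatory myosin light chain, had 738, 722 and 745 in WT bleo and 1991, 1963 and 1974 in Pear1-/- bleo (log2 fold change 1.41, standard error 0.080, edgeR adjusted p = 5.37e-11). For *Myl9* the vehicle means were 1656 in WT and 1817 in Pear1-/- libraries, so WT bleo was the group that stood apart and it stood low. The tropomyosins *Tpm1* (1.20) and *Tpm2* (1.57), calponin *Cnn1* (1.39), enteric actin *Actg2* (1.32), the LIM protein *Fhl2* (1.87) and the Z-disc gene *Ldb3* (2.04) rose. *Myh11*, the myosin heavy chain of mature smooth muscle, did not rise with them and was lower by adjusted p at -0.40.

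Genes of this kind are known to be driven through serum response factor, which binds the CArG box in their promoters. The box, named here by its usual consensus on either strand, was searched in the 300-base RefSeq windows of GRCm38.p6 that run from 250 bases before to 50 bases after each start site. It occurred in 535 of 32851 windows (1.63%), in 9 of the 41 windows (21.95%) that matched 32 contractile list genes, in 0 of 25 windows of the activated fibroblast list and in 0 of 8 windows of the fibrillar collagens. The 7 contractile genes with a match were the risers *Myl9*, *Fhl2*, *Ldb3* and *Vcl* (1.116) and *Cnn2*, *Myl6* and *Srf*, which did not pass both criteria (0.33, 0.21 and -0.20). The risers *Acta2*, *Des*, *Cnn1*, *Tpm1* and *Tpm2* had windows without a match. A match describes letters only, and no match says nothing of the factor. The windows of *Myl9* and *Fhl2*, both among the genes that rose, are shown 5′ to 3′ with the box in capitals, *Myl9* from chr2:156775214-156775513 on the plus strand and *Fhl2* from chr1:43196712-43197011 on the minus strand, with the last base of the box 152 and 87 bases before the start.
Myl9: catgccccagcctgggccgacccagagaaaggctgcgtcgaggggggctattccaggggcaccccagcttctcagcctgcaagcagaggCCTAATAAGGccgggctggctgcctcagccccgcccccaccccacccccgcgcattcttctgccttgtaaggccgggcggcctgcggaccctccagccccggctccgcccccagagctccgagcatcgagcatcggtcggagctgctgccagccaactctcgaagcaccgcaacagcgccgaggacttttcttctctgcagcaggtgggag
Fhl2: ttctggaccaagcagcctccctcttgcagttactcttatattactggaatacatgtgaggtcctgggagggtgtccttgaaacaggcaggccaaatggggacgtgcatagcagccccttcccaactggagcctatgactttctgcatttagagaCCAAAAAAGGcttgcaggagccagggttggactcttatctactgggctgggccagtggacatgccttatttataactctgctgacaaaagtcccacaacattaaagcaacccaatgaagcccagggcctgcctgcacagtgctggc

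**Figure D2:**
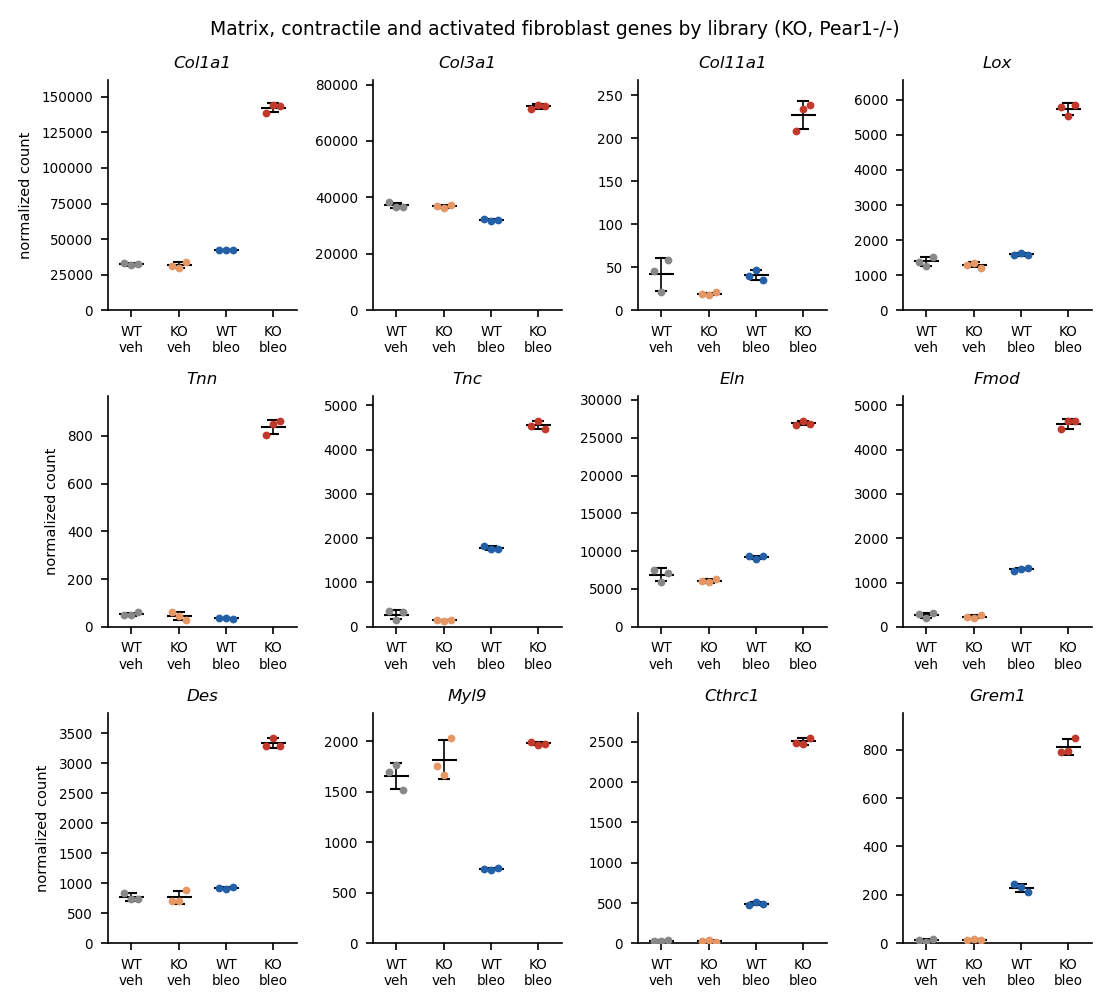
Normalized counts of 12 matrix, contractile and activated fibroblast genes in the 12 libraries, 3 points per group with mean and SD, in WT vehicle, Pear1-/- (KO) vehicle, WT bleo and KO bleo. In all 12 panels the KO bleo points lie above the WT bleo points, and for *Myl9* the WT bleo points lie below both vehicle groups.

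Genes that mark activated fibroblasts in injured lung gave 15 rises and 1 fall among 29 (median 1.01). *Cthrc1*, the gene most used to name the scar-forming fibroblast, stood at 470.2, 508 and 492 normalized counts in WT bleo and 2491, 2476 and 2551 in Pear1-/- bleo (log2 fold change 2.34, standard error 0.15, edgeR adjusted p = 2.49e-08). Its vehicle means were 30.1 and 29.7, so both bleo groups lay above vehicle, the knockout further than WT. *Grem1*, a BMP antagonist, rose from 229.8 ± 16.4 to 812 ± 32.4 (log2 fold change 1.81) against vehicle means of 11.8 and 14.98. The Wnt antagonist *Sfrp1* (1.69), the leucine-rich repeat gene *Lrrc15* (1.69), the adhesion genes *Ncam1* (1.87) and *Edil3* (2.22), the activin subunit *Inhba* (1.31) and *Fstl1* (1.24) rose as well. *Fap* and *Itga11* were higher at smaller folds, 0.61 and 0.46. *Itgb5*, a subunit of an integrin that releases TGF-beta and one that macrophages also carry, fell (log2 fold change -1.23, standard error 0.076, edgeR adjusted p = 1.89e-10), and *Thy1* and *Runx1* were lower by adjusted p at -0.51 and -0.51.

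Genes of resting fibroblasts were described by 3 lists. Of 27 alveolar fibroblast genes 1 rose, *Spon1* (1.04), and the list's median was 0.31. *Tcf21*, a transcription factor of that state, had 305, 309 and 294 in WT bleo and 323, 271 and 320.3 in Pear1-/- bleo, which overlapped (log2 fold change 0.00, standard error 0.095, edgeR adjusted p = 0.994), and *Npnt*, *Inmt* and *Ces1d* gave 0.57, 0.12 and -0.14 without passing the adjusted p. Of 28 adventitial genes, 2 rose, *Sfrp2* (1.36) and *Cd248* (1.26), and 2 fell, *Adh7* (-1.32) and *Sfrp4* (-1.14). *Pi16* and *Dpp4* of the adventitial reservoir were lower by adjusted p, at -0.84 and -0.38. In the lipofibroblast and lipid handling list, 4 of 21 genes fell and 1 rose (median -0.46). *Pparg*, the nuclear receptor of lipid-storing cells, had 181, 203 and 185 normalized counts in WT bleo and 45.3, 59.3 and 44.8 in Pear1-/- bleo (log2 fold change -1.94, standard error 0.18, edgeR adjusted p = 4.91e-08), and *Cebpb*, *Cebpa* and *Apoe* fell by 1.89, 1.65 and 1.05. These genes are also made by macrophages. *Plin2* and *Lpl* were lower by adjusted p at -0.44 and -0.66. The riser was *Angptl4*, a lipoprotein lipase inhibitor (log2 fold change 1.88, standard error 0.17, edgeR adjusted p = 3.88e-06).

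Of 36 transcription factors of fibroblasts, 6 rose and none fell (median 0.44). *Snai1*, a factor of mesenchymal transition, stood at 421, 434 and 468 in WT bleo and 1322, 1351 and 1342 in Pear1-/- bleo (log2 fold change 1.59, standard error 0.084, edgeR adjusted p = 2.03e-11), and the lung mesenchyme factor *Tbx5* (1.20) rose. *Twist1* (2.25), *Tead4* (1.90) and *Wt1* (1.17) rose from means of 3.32, 5.29 and 7.14 normalized counts, and the call of *Wt1* was lost when single libraries were left out. *Tbx4* and *Prrx1* were higher by adjusted p at 0.94 and 0.94.

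The TGF-beta and activin pathway, the main route to matrix synthesis, did not move as a block: 2 of 29 genes rose, 2 fell, and the median was -0.30. Among ligands, *Tgfb1* was lower (439.6 ± 9.88 against 323 ± 15.1, log2 fold change -0.46, edgeR adjusted p = 5.02e-04), *Tgfb2* rose by 1.11 and *Tgfb3* was higher at 0.71. Of the receptors, *Tgfbr1* fell from 2484, 2445 and 2402 to 1087, 1062 and 1007 (log2 fold change -1.23, standard error 0.068, edgeR adjusted p = 4.04e-11), *Tgfbr2* was at 0.24, and *Acvr2b* fell at means of 14.98 and 3.24. The feedback genes *Smad7* and *Pmepa1* were lower at -0.43 and -0.32, and *Fst*, the activin-binding follistatin, rose by 1.28.

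In the BMP pathway 3 of 25 genes rose and none fell (median 0.24). *Bmper*, a secreted BMP modulator, rose from 378 ± 22.3 to 1087 ± 23.0 (log2 fold change 1.51), and *Bmpr1b* (1.98) and *Smad9* (1.56) rose at low counts. The ligand *Gdf10* was lower by adjusted p at -0.67, and *Id1* and *Id3*, immediate targets, were higher at 0.73 and 0.71. Of 35 PDGF, FGF and IGF genes 4 rose and 2 fell (median 0.20). The receptors and the ligand of the PDGF system split: *Pdgfrb* rose by 1.10, *Pdgfra*, the sorted antigen, was higher at 0.80, and *Pdgfb*, a ligand of macrophages and endothelium, fell from 257, 280.4 and 266 to 62.2, 73.1 and 69.6 normalized counts (log2 fold change -1.98, standard error 0.15, edgeR adjusted p = 2.80e-09). *Igfbp3* (1.63), *Fgfr1* (1.28) and *Fgf7* (1.004) rose, and *Hgf* and *Fgf10* were at 0.19 and 0.38.

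Wnt, Hedgehog and Notch genes gave 6 rises and 4 falls among 48 (median 0.18). Most of the risers are secreted modulators or Wnt receptors: *Rspo3* (2.14), *Sfrp1* (1.69), *Sfrp2* (1.36), *Frzb* (1.29), *Lgr6* (1.20) and *Fzd1* (1.08). Of the fallers, 3 belong to Notch signalling, *Dner* with means of 63.5 and 7.56, *Dll4* with 30.2 and 13.8, and *Hey2* with pooled counts of 31 and 5. The target *Axin2* was at 0.37 with an adjusted p of 0.0535, and *Gli1* was higher at 0.44. Of 17 integrin genes, 1 rose, *Itga2* (1.76), and 3 fell, *Itga6* (-1.83), *Itgax* (-1.54) and *Itga9* (-1.31), while *Itgb1* was higher at 0.71.

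Most markers shared by leukocytes or by macrophages fell. Of 23 pan-leukocyte and macrophage markers, 15 fell, none rose, and 22 were lower by adjusted p (median -1.11). *Csf1r*, the macrophage growth factor receptor, stood at 10507, 10205 and 10442 normalized counts in WT bleo and 3983, 3976 and 3934 in Pear1-/- bleo, without overlap, and at means of 1237 and 1187 in vehicle (log2 fold change between the bleo groups -1.40, standard error 0.063, edgeR adjusted p = 2.16e-12). *Cx3cr1*, a receptor of monocyte-derived macrophages, fell from 4189 ± 34.9 to 1029 ± 47.0 (log2 fold change -2.04), and *Adgre1*, *Mrc1* and *Cd68* fell by 1.69, 1.37 and 1.23. Both bleo groups were above vehicle in the summed level: 3894 to 4487 CPM in WT and 4369 to 4545 CPM in Pear1-/- vehicle.

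The lists for kinds of macrophage differed in their counts and medians, and the difference between lists was not tested. Interstitial macrophage genes gave 11 falls and 1 rise of 19 (median -1.26). *C1qa*, a chain of the first complement component, went from 17939.7, 17428 and 17919 in WT bleo to 5232, 5468 and 5329 in Pear1-/- bleo (log2 fold change -1.75, standard error 0.084, edgeR adjusted p = 5.84e-12), with *C1qb* and *C1qc* at -1.67 and -1.90, *Ms4a7* at -2.57 and *Pf4* at -1.23. The summed level of the list was 10138 to 10329 CPM in WT bleo and 3682 to 3755 CPM in Pear1-/- bleo. Alveolar macrophage genes gave 8 falls of 22 (median -0.71), such as *Ear2* (-1.16) and *Atp6v0d2* (-1.19), yet their summed level was 1078 to 1114 CPM in WT bleo and 1124 to 1151 in Pear1-/- bleo. *Chil3*, the member with the most counts, was higher (3147 ± 139 against 5154 ± 62.4, log2 fold change 0.70), though not past the adjusted p in every alternative fit. *Timd4* of resident macrophages rose from 6.94 to 19.2 normalized counts.

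Scar-associated macrophage genes split within the list: 7 of 22 fell and 2 rose. *Trem2*, the lipid receptor that marks these cells, fell from 1346 ± 32.5 to 598 ± 29.5 (log2 fold change -1.18), and *Gpnmb* and *Lgals3* were lower at -0.49 and -0.73. Against that, *Spp1*, osteopontin, rose by 1.65.

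MHC class II genes, which load antigen for T cells, fell in 7 of 11 cases, with none that rose (median -1.15). *H2-Aa* stood at 68825, 68915 and 69722 in WT bleo and 26870.1, 26908 and 26731 in Pear1-/- bleo (log2 fold change -1.38, standard error 0.054, edgeR adjusted p = 5.63e-13), and *Ciita*, their master regulator, fell by 1.26. The list took 39496 to 40949 CPM of the WT bleo libraries, 16606 to 16989 of the Pear1-/- bleo libraries and 8092 to 9189.8 of WT vehicle. Dendritic cell genes gave 5 falls and 1 rise of 19: the cross-presenting dendritic cell markers *Clec9a* (-1.58) and *Cadm1* (-1.95), *Cd83* (-1.23) and *Sirpa* (-1.05) among the fallers, and *Fscn1*, an actin bundler that fibroblasts also use, as the riser (1.28).

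Of 25 monocyte and neutrophil genes, 2 rose and 2 fell, a share close to the 15% of all genes tested, and 15 did not pass by adjusted p either (median 0.61). In vehicle the median of the list was 0.59 with no gene called, and 1.02 with 13 genes called higher without WT vehicle replicate 2, and its interaction median was -0.07 and -0.65. *Ccr2*, the receptor by which monocytes enter inflamed tissue, went from 4503, 4683 and 4667 to 1648, 1601 and 1665 (log2 fold change -1.51, standard error 0.078, edgeR adjusted p = 1.61e-11). *F13a1*, a coagulation factor chain of monocytes and resident macrophages, rose from 155 ± 3.501 to 485 ± 11.7 (log2 fold change 1.63), and the neutrophil collagenase *Mmp8* (1.31) rose. The neutrophil genes *S100a8* and *S100a9* were at 0.90 and 0.65 with adjusted p of 0.123 and 0.332, and *Csf3r* was at -0.23 with an adjusted p of 0.71.

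T and natural killer cell genes were low throughout. Of 33, 3 fell and none rose (median -0.44): *Gzmb* (-1.24), *Klrb1c* (-1.03) and, on pooled counts of 18 and 3, *Eomes*, whose call was lost when single libraries were left out. The shared T cell marker *Cd3e* was lower by adjusted p with means of 113 and 83.7, and *Foxp3* and *Cd8a* were at -0.11 and -0.02.

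Chemokines, the signals that recruit and steer leukocytes, fell more often than they rose: of 31, 10 fell and 2 rose (median -0.48). *Ccl3* and *Ccl4*, made mostly by macrophages, fell from means of 7716 ± 177 to 1923 ± 117 and from 12787 ± 295 to 3388 ± 63.4 (log2 fold changes -2.02 and -1.93). The interferon-induced chemokines *Cxcl9* (-1.52) and *Cxcl10* (-1.30) and the monocyte attractant *Ccl12* (-1.77) fell, *Ccl2* was lower at -0.34, and *Cxcl12*, a fibroblast chemokine, was higher at 0.73. The risers attract neutrophils: *Cxcl5* had 5.51, 8.16 and 6.07 normalized counts in WT bleo and 25.8, 35.2 and 44.8 in Pear1-/- bleo. *Cxcl3*, whose call was lost when single libraries were left out, had 137, 106 and 106 and 258, 247 and 246. Among 39 cytokines and receptors, 6 fell and 4 rose. *Tnf* went from 2695, 2783 and 2892 to 1079, 1112 and 1141 (log2 fold change -1.34, standard error 0.11, edgeR adjusted p = 2.16e-08), and *Il10ra* (-1.30) and *Il15* (-1.27) fell. *Il11*, a cytokine of activated fibroblasts, rose from 16.5, 22.4 and 19.2 to 56.8, 62.7 and 61.0 (log2 fold change 1.62, standard error 0.22, edgeR adjusted p = 5.51e-06), with the prostaglandin E synthase *Ptges* (1.51) and the prostaglandin E receptor gene *Ptger2* (1.01). *Tnfsf11*, which encodes RANKL, rose on pooled counts of 5 and 51, a depth-scaled ratio of 9.34. *Il6* was at -0.15 with an adjusted p of 0.324.

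Of 39 interferon-stimulated genes 3 fell and none rose (median -0.31); 2 of the 3 are the chemokines already named and the other is *Trim30a* (-1.02). *Irf7*, a core member, was at -0.08. Complement genes gave 3 falls and 2 rises of 19: the receptor *C3ar1* (-1.36), the regulator *Cd55* (-1.08) and the factor D protease gene *Cfd* (-1.92) fell, and *C1qtnf6* (1.23) and *Masp1* (1.01) rose, the latter without a call when single libraries were left out. *C3*, a fibroblast product, had 5849 ± 57.1 and 7157 ± 140.5 normalized counts (log2 fold change 0.28, adjusted p = 0.376).

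**Figure D3:**
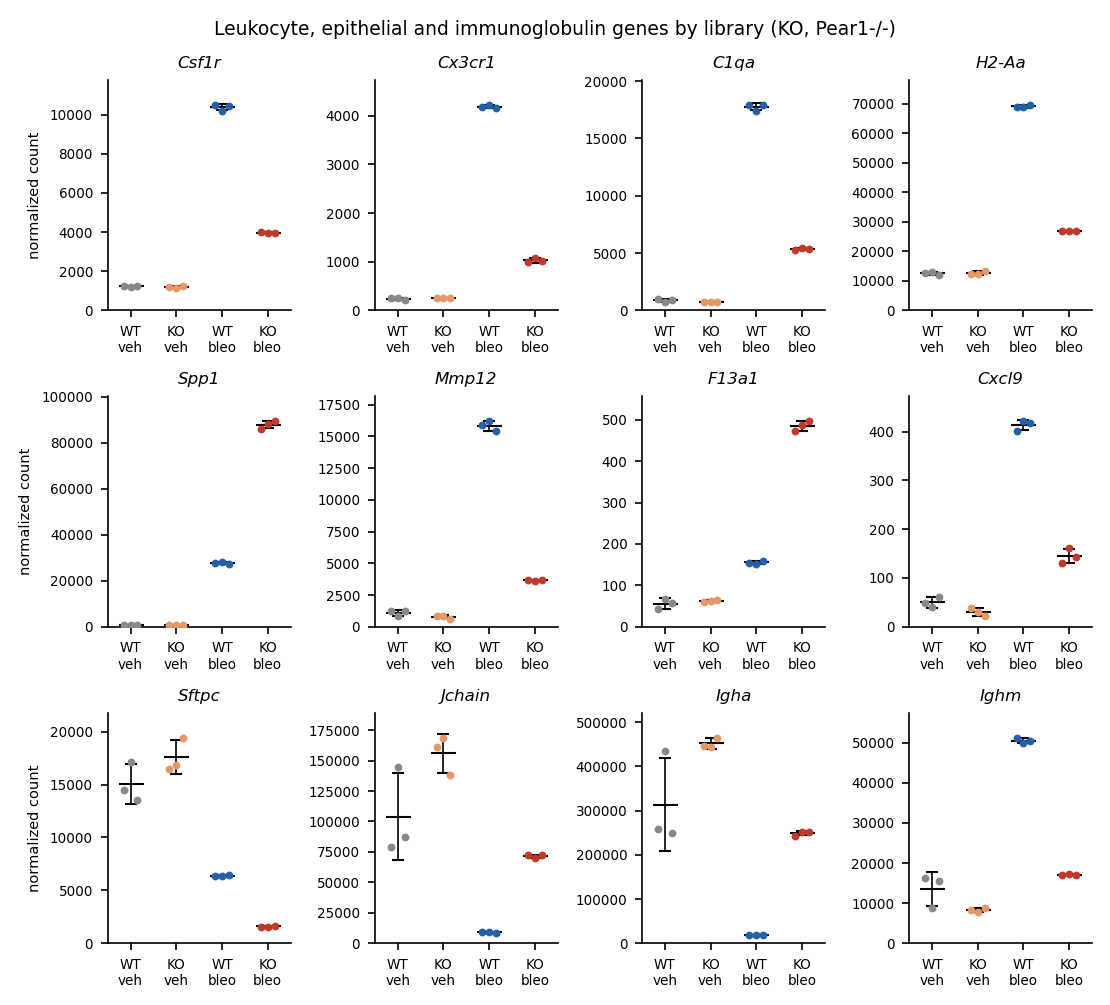
Normalized counts of 12 leukocyte, epithelial and immunoglobulin genes in the 12 libraries, 3 points per group with mean and SD. *Csf1r*, *Cx3cr1*, *C1qa*, *H2-Aa* and *Mmp12* are highest in WT bleo, *Spp1* and *F13a1* in Pear1-/- (KO) bleo, and the KO bleo points of *Jchain* lie between WT bleo and both vehicle groups.

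Genes of B cells and of antibody-secreting plasma cells moved in opposite directions. Of 16 B cell genes, 5 fell and none rose (median -0.70). *Fcer2a*, the low-affinity IgE receptor, went from 678, 682 and 671 to 207, 192 and 202 (log2 fold change -1.77, standard error 0.078, edgeR adjusted p = 1.83e-12), and *Cr2* (-1.35) and *Pax5* (-1.11), the B cell identity factor, fell. Of 15 plasma cell genes outside the immunoglobulin loci, 7 rose and 1 fell (median 0.72). *Jchain*, which joins IgA and IgM into polymers, stood at 9227, 9338 and 8683 in WT bleo and 72087, 69992 and 72519 in Pear1-/- bleo (log2 fold change 2.96, standard error 0.21, edgeR adjusted p = 5.18e-06). *Derl3* (2.03), *Mzb1* (1.49) and the survival receptor *Tnfrsf17* (1.44) rose, and *Prdm1*, the plasma cell factor, was at -0.11 (adjusted p = 0.629). The summed level of this list was 1879.9 to 1976 CPM in WT bleo, 9189 to 9451 in Pear1-/- bleo, 10976 to 17342 in WT vehicle and 16185 to 19864 in Pear1-/- vehicle. *Jchain* made up most of this sum in Pear1-/- bleo. In the sum the knockout bleo libraries lay between WT bleo and vehicle, which need not hold for the other members.

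Immunoglobulin genes as a whole took 18002 to 18329.8 CPM in WT bleo and 71211 to 71674 CPM in Pear1-/- bleo, a ratio of 3.94. The isotype changed with the amount. *Igha*, the heavy chain of mucosal IgA, stood at 17816, 17789 and 17775 normalized counts in WT bleo and 243041, 251514 and 251385 in Pear1-/- bleo (log2 fold change 3.79, standard error 0.20, edgeR adjusted p = 6.91e-07), and *Ighm*, the heavy chain of IgM, at 51233, 49878 and 50354 and 16954, 17308 and 17098 (log2 fold change -1.57, standard error 0.20, edgeR adjusted p = 1.55e-04). Of all heavy chain constant counts, IgA made up 24.3% to 24.7% in WT bleo and 91.4% to 91.5% in Pear1-/- bleo, and 91.84% to 95.04% in the vehicle libraries. IgM made up 69.3% to 69.8% in WT bleo and 6.23% to 6.37% in Pear1-/- bleo. Of the 12 constant genes, 6 rose and 3 fell. *Ighe*, the heavy chain of IgE, rose on pooled counts of 2 and 47. Among V genes, 68 of 107 heavy and 62 of 98 light chain genes tested rose, and 3 and 2 fell, with medians of 2.35 and 2.28. With genes at 0 in one group set to the bound that the floor of 3 counts per library allows, the medians were 2.34 and 2.19. V genes share reads with near-identical copies, so values of a single V gene are uncertain. Libraries of one bleo group shared 96.3% to 97.7% of their V-gene make-up and libraries of different genotypes 65.4% to 67.1%.

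**Figure D4:**
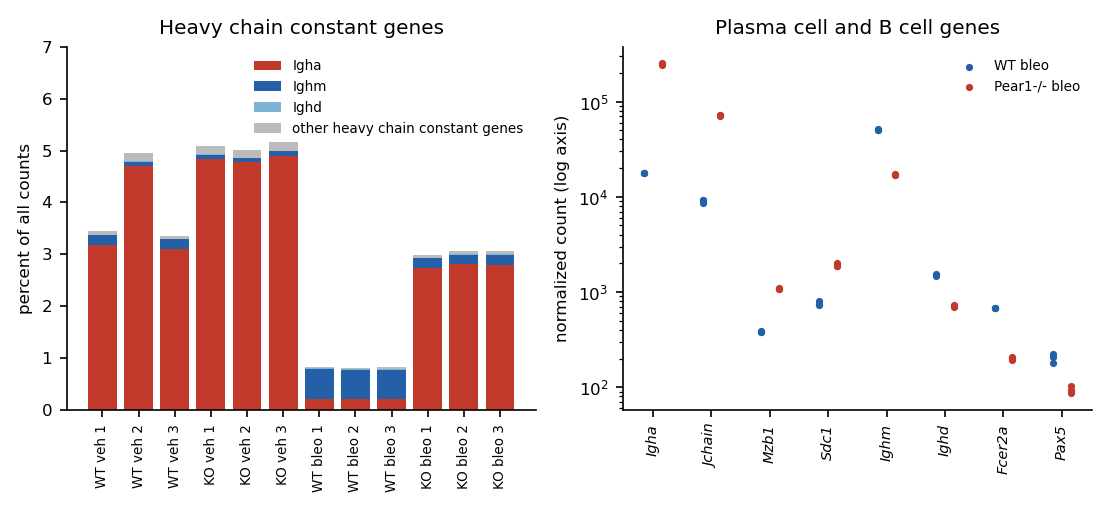
Left, percent of all counts that fell on immunoglobulin heavy chain constant genes in each of the 12 libraries, stacked by gene. Right, normalized counts on a log axis of plasma cell and B cell genes in the 3 WT bleo (blue) and 3 Pear1-/- (KO) bleo (red) libraries: *Igha*, *Jchain*, *Mzb1* and *Sdc1* are higher and *Ighm*, *Ighd*, *Fcer2a* and *Pax5* lower in the knockout.

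Epithelial transcripts in the gate fell more often than they rose. Of 22 alveolar epithelial genes, 9 fell and 1 rose (median -0.63). *Sftpc*, surfactant protein C of type II cells, had 6367, 6328 and 6486 in WT bleo and 1587, 1583 and 1661 in Pear1-/- bleo (log2 fold change -2.002, standard error 0.081, edgeR adjusted p = 6.81e-13), *Sftpb* (-1.46), *Lyz1* (-2.18) and the type I cell gene *Ager* (-1.15) fell, and *Epcam* was lower at -0.30. *Hopx* rose from means of 2.51 to 18.8. The summed level of the list was 1754 to 1781 CPM in WT bleo, 833 to 849 in Pear1-/- bleo and 3273 to 3459 in WT vehicle. Airway genes gave 7 falls and 2 rises of 17 (median -0.69), with the antimicrobial gene *Reg3g* (-3.47) and the club cell cytochrome *Cyp2f2* (-1.62) among the fallers and *Muc5b* on pooled counts of 43 and 6.

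Endothelial genes passed both criteria at a smaller share than the 15% of all genes tested, and pericyte, smooth muscle and mesothelial genes at a larger one. Of 21 endothelial genes, 1 rose and 1 fell (median 0.21), and *Pecam1* had 658, 604 and 606 in WT bleo and 599, 611 and 584 in Pear1-/- bleo, which overlapped (log2 fold change -0.07, standard error 0.078, edgeR adjusted p = 0.483). Pericyte and smooth muscle lineage genes gave 4 rises of 18 (*Cnn1* (1.39), *Actg2* (1.32), *Postn* (1.20) and *Pdgfrb* (1.10)), all shared with the matrix, contractile or growth factor lists, while *Rgs5* and *Cspg4* were at -0.01 and 0.36 with adjusted p of 0.994 and 0.0511. Mesothelial genes gave 3 rises and 1 fall of 11, at low counts, with a median of 0.66 as fitted, 0.13 without Pear1-/- bleo replicate 1, and 0.25 with a gene at 0 in WT bleo set to its bound. Of 7 erythroid genes, the globins *Hba-a1* (2.64) and *Hbb-bs* (1.75) rose, from means of 25.2 and 29.8 to 159 and 102.

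Cell cycle genes were mostly higher at small folds. Of 44, 3 rose and 1 fell by both criteria, and by adjusted p alone 24 were higher and 5 lower (median 0.45). The risers *Ccnb1*, *Ccnb2* and *Kif20a* act in mitosis, with log2 fold changes of 1.14, 1.16 and 1.45, and the faller was *E2f1* (-1.14). *Mki67*, the common proliferation marker, was lower by adjusted p, with 445, 441 and 422 in WT bleo and 367, 379 and 365 in Pear1-/- bleo (log2 fold change -0.25), and no longer passed with DESeq2, with limma or when any 1 bleo library was left out. *Top2a* was at 0.18 with an adjusted p of 0.0504. Of 27 p53 targets and cell death regulators, 3 fell and 2 rose (median 0.01). *Gdf15*, a stress cytokine, fell from 1576 ± 14.6 to 521 ± 21.7 (log2 fold change -1.61, standard error 0.091, edgeR adjusted p = 4.92e-11), and *Mcl1* (-1.14) fell. *Cdkn1a*, the p53 target that arrests the cycle, stood at 3633, 3564 and 3878 in WT bleo and 3594, 3670.4 and 3608 in Pear1-/- bleo (log2 fold change -0.04, standard error 0.067, edgeR adjusted p = 0.66), and *Cdkn2b* rose from 33.9 to 102.

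Of 32 genes in the endoplasmic reticulum folding and secretion list 2 rose and none fell (median 0.24). They were the retrieval receptor *Kdelr3* (1.41) and asparagine synthetase *Asns* (1.82), an enzyme that neither folds nor secretes proteins. *Hspa5* and *Ddit3* of the unfolded protein response were at 0.23 and -0.22. Glycolysis genes gave 2 rises, the lactate carrier *Slc16a1* (1.39) and *Eno2* (1.58), and 2 falls, *Aldoc* (-1.21) and *Hk3* (-1.07), of 22. Of 25 cholesterol synthesis genes none rose, 15 were lower by adjusted p, and the median was -0.37. None of 76 respiratory chain genes and 1 of 80 ribosomal protein genes, *Rps4l* (1.13), passed both criteria, with medians of 0.06 and -0.19. Of 26 NRF2 targets and antioxidant genes, 2 rose (*Mt2* (1.28) and *Nqo1* (1.03)), with a median of -0.01. Immediate early and heat shock genes, which the dissociation of tissue can induce, gave 2 rises and 1 fall of 28 (median -0.05); *Jund* fell by 1.30, *Hspb1* (1.09) and *Fosl1* (1.17) rose, and *Fos* was at 0.19.

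**Figure D5:**
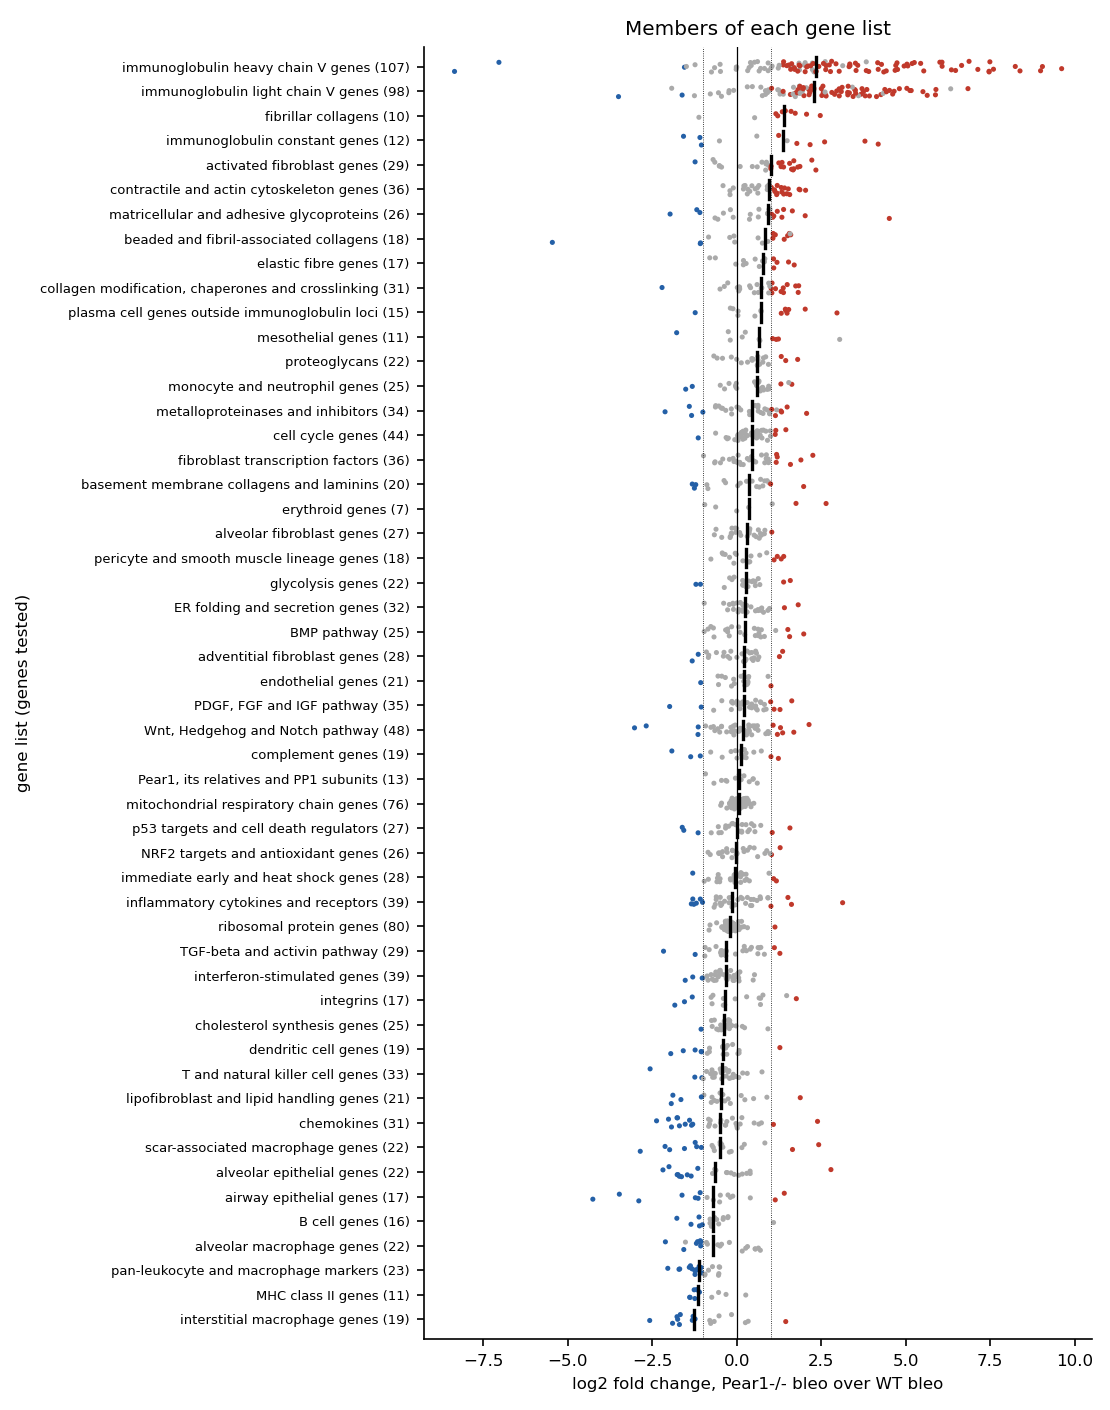
Log2 fold changes of Pear1-/- bleo over WT bleo for the tested members of each gene list, 1 point per gene, with a black bar at the list's median and lists ordered by it. Red points rose and blue points fell by both criteria and grey points did not pass, and matrix, contractile and immunoglobulin lists lie at the top and macrophage and MHC class II lists at the bottom.

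The same genotype contrast in vehicle gave 578 genes past both criteria, 3.32% of those tested, of which 12 were higher and 566 lower. Without WT vehicle replicate 2 the counts were 484 and 1971, and leaving out any 1 of the other 5 vehicle libraries left no call in either direction (1144 to 2040 higher and 1765 to 2516 lower at an unadjusted p under 0.05), so the size of the vehicle comparison rests on single libraries. The test of the difference between the 2 contrasts, the interaction, passed both criteria for 2701 genes (15.5%), 1486 (8.53%) in the direction of a higher genotype difference after bleo and 1215 (6.98%) in the other, and for 2077 and 1693 genes without WT vehicle replicate 2. In the fit scaled by library size only, the split was 1820 and 866. The vehicle and bleo contrasts share no library, but the spread of each gene was estimated over the libraries of both. Leaving out 1 bleo library gave 0 to 3 higher and 182 to 269 lower vehicle calls. The interaction is built from both contrasts.

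Vehicle medians lay near 0 for some gene lists and further from it for others. Fibrillar collagens had a vehicle median of -0.13 and an interaction past both criteria in 8 of 10 genes (9 without WT vehicle replicate 2), all toward a higher difference after bleo, and the contractile list had a vehicle median of -0.06 and an interaction in 21 of 36 with or without that library. *Col1a2* had a vehicle log2 fold change of 0.09 and an interaction of 1.35 (standard error 0.072, edgeR adjusted p = 1.84e-10), and 1.31 without WT vehicle replicate 2. *Lox* was at -0.12 in vehicle, with an interaction of 1.95 (2.02 without it), and *Cthrc1* at 0.00 with an interaction of 2.34 (2.33 without it). *Tnc*, *Fn1*, *Dcn* and *Lum* had vehicle log2 fold changes of -0.88, -0.69, 0.63 and 0.63 that did not pass by adjusted p (0.0671, 0.0513, 0.125 and 0.0948), and of -1.19, -0.91, 1.06 and 1.02 that did without that library. The interaction of *Tnc* was 2.22 (2.53 without it) and that of *Fn1* 1.72 (1.95). The interaction of *Dcn* went from -0.50 (edgeR adjusted p = 0.305) to -0.92 (adjusted p = 5.92e-17) and that of *Lum* from -0.01 (adjusted p = 1) to -0.39 (adjusted p = 5.10e-05). Other fibroblast lists had vehicle medians further from 0: beaded and fibril-associated collagens were at -0.45 (-0.58 without it), alveolar fibroblast genes at -0.36 and adventitial fibroblast genes at 0.42, the last pair larger in size than the medians of those lists after bleo. No alveolar or adventitial fibroblast gene was called in vehicle, while without WT vehicle replicate 2 the medians were -0.51 and 0.58, with 8 alveolar genes lower and 1 higher and 5 adventitial genes higher. The interaction passed both criteria, toward a higher difference after bleo, in 9 of 27 alveolar fibroblast genes, and in 12 without that library. Among adventitial fibroblast genes it passed toward a higher difference in 1 and toward a lower one in 4 (median -0.28). Without WT vehicle replicate 2 these counts were 0 and 7 (median -0.58). Macrophage genes were not alike in vehicle. *Csf1r* was at -0.06 in vehicle, with an interaction of -1.34 (edgeR adjusted p = 1.88e-09) and of -1.32 without WT vehicle replicate 2, and *H2-Aa* at 0.01 with -1.39 and -1.41. *Trem2* was already lower in vehicle, at -1.08 (edgeR adjusted p = 0.0444) and at -1.43 without WT vehicle replicate 2, and its interaction was -0.10 (adjusted p = 0.849) with all libraries and 0.25 (adjusted p = 0.289) without that one. *Ms4a14* was at -1.33 in vehicle (edgeR adjusted p = 0.0395) with an interaction of -1.52 (adjusted p = 0.0119), and at -1.73 and -1.12 without it. Of the scar-associated macrophage genes 3 were called lower in vehicle, and all of these vehicle calls were lost when any 1 of the other 5 vehicle libraries was left out. Immunoglobulin lists had the vehicle medians furthest from 0, at 0.79 for heavy chain V genes, 0.98 for light chain V genes and 0.71 for constant genes, with 1 V gene called higher and 9 lower. Without WT vehicle replicate 2 these medians were 1.73, 1.90 and 1.29, and 58 heavy and 71 light chain V genes were called higher and 12 and 5 lower. The interaction medians of the V-gene lists were 2.19 and 1.77 with all libraries and 1.46 and 0.56 without that one. Plasma cell genes outside the immunoglobulin loci had a vehicle median of 0.39 and an interaction median of 0.39, and of 0.65 and 0.17 without WT vehicle replicate 2. The size of the *Igha* contrast in vehicle rested in part on WT vehicle replicate 2. *Igha* was at 0.52 in vehicle (adjusted p = 0.0986) with an interaction of 3.27 (adjusted p = 2.22e-05), and at 0.83 and 2.97 without WT vehicle replicate 2 (adjusted p = 3.17e-21 and 1.03e-36). *Ighm* was at -0.72 in vehicle (edgeR adjusted p = 0.0552) with an interaction of -0.85 (adjusted p = 0.0369), and at -0.96 and -0.61 without WT vehicle replicate 2 (adjusted p = 4.07e-21 and 2.89e-11).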

How the data were processed

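RNA of sorted Cd140a+ lung mesenchymal cells was amplified as full-length cDNA with SMART-Seq v4, tagmented and sequenced as paired reads on a HiSeq X10. The authors aligned the reads with HISAT2 to mouse GRCm38 (mm10) and deposited raw counts per gene for 12 libraries. The counting program and whether it used strand are not given in the sources used here. The authors also deposited normalized values, which are the signal of each count divided by a DESeq2 size factor of its library, and these are the normalized counts printed per library. The study tested genes with limma. The library totals of the bleo groups, 8732810 to 10447101 counts, set the precision of genes with few counts, and intervals given for pooled counts cover counting error only.

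Raw counts of all 12 libraries were fitted with edgeR 4.0.16 in R 4.3.3 (TMM scaling, filterByExpr by group, robust quasi-likelihood, 1 mean per group), and Pear1-/- was compared with WT after bleo, after vehicle, and between the treatments as an interaction. P-values were Benjamini-Hochberg adjusted over all tested genes, and a gene was called when its fold passed 2 and its adjusted p lay under 0.05. Floors of 3 counts per library were used where a group had none. The steps were tested on simulated data. Alternatives were DESeq2 1.42.0, limma 3.58.1 on log2 normalized counts with a pseudocount of 1, other scalings, no filter, the bleo libraries alone, a replicate block and leaving out each library.

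Genes were named by rule: the 15 largest rises and falls among called genes at log2 CPM of 3 or more without immunoglobulin V genes and numbered gene models, the 10 called genes of highest level in each direction, and, in each of 52 gene lists, marked defining members and up to 4 called members of largest fold in each direction. The comparison, the members and the lists were chosen with earlier results of these data known. *Elane*, *Slc4a1*, *Col11a2*, *Col27a1*, *Vcl*, *Cnn2*, *Myl6* and *Srf* were named after their values were seen. Some genes that the rule names are not reported here. Lists are described by counts and medians, with no set test.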

Additional observations from a re-analysis of the deposited data

Results flagged for a closer look

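The genotype difference depended on treatment for 2701 genes by the interaction test (edgeR, fold above 2 and adjusted p under 0.05). Of all genes tested, 86 passed both criteria in opposite directions after vehicle and after bleo, and in 86 of them the vehicle difference kept its direction at an adjusted p under 0.05 without the library labelled WT vehicle replicate 2. All 12 higher and 566 lower vehicle calls were kept in that setting, so it could not tell these 86 genes from the rest. Leaving out any 1 of the other 5 vehicle libraries left no gene called in vehicle by edgeR (1144 to 2040 higher and 1765 to 2516 lower at an unadjusted p under 0.05, while DESeq2 on all libraries called 15 and 643), so none of the 86 kept its vehicle call there. Among the genes named above, *Hal* had an interaction log2 fold change of 7.67, *Sema3a* of 4.14, *Col11a1* of 3.59, *Adam12* of 3.395 and *Lrrc15* of 3.35, and without WT vehicle replicate 2 they had 8.10, 4.47, 3.94, 3.74 and 3.55. These 5 genes were lower in Pear1-/- than in WT libraries after vehicle and higher after bleo. With 3 libraries in each group, single outlying libraries were not tested for. The cause of these differences was not tested.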

How the results depend on the processing

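After bleo, counts of genes called by edgeR stayed within 1.5 times of 1083 higher and 1533 lower under every alternative run: 1080 and 1479 with DESeq2, 1110 and 1475 with limma, 1235 and 1645 in the bleo libraries alone, 1275 and 1738 without a filter, and 983 to 1202 and 1345 to 1694 when 1 library was left out. No bleo fold change that passed by adjusted p, among the 296 genes named in the text, reversed, while *Tcf21*, *Rgs5* and *Cd8a*, near 0, changed sign. Calls or adjusted p of 18 were lost under at least 1 alternative, among them *Wt1*, *Cxcl3*, *Col6a6*, *Eomes* and *Masp1* of the called genes and *Mki67*, *Lum*, *Chil3* and *Epcam* of those that passed by adjusted p alone. Others gained an adjusted p under 0.05 after bleo. In the bleo libraries alone 16 of the 296 gained it and 1 lost it, and without WT vehicle replicate 2, 16 gained it and 0 lost it. The list medians kept their sign except for p53 targets (-0.02 to 0.02) and NRF2 targets (-0.07 to 0.01), and leaving out 1 library moved those of the mesothelial (0.13 to 0.75), PDGF, FGF and IGF (0.18 to 0.33), Wnt, Hedgehog and Notch (0.12 to 0.28), Pear1 and PP1 (0.02 to 0.11), respiratory chain (0.03 to 0.08) and immediate early lists (-0.06 to -0.02) by over 1.5 times. The vehicle comparison, with 12 higher and 566 lower, was less stable: 1 and 27 with limma, 58 and 2861 without a filter, 872 lower with library size scaling, and 0 to 484 higher and 0 to 1971 lower when 1 library was left out. A count of 0 in both directions came on leaving out a single vehicle library, except for WT vehicle replicate 2, with 1144 to 2040 higher and 1765 to 2516 lower at an unadjusted p under 0.05, while DESeq2 on all libraries called 15 and 643. Leaving out a single bleo library, which is not part of that contrast, gave 0 to 3 higher and 182 to 269 lower. Scaling by library size shifted the median of all genes to -0.15 in vehicle and 0.15 in the interaction, which then gave 1820 and 866 genes instead of 1486 and 1215. Leaving out 1 library gave 1286 to 2077 and 1112 to 1693 interaction genes, the upper ends without WT vehicle replicate 2, and there the interactions of *Chil3* (-0.32) and *Cxcl3* (-0.47) reversed, against highest values of 0.29 and 0.39 without WT vehicle replicate 3. The cause was not tested. Replicate numbers are shared by the groups, but same-numbered bleo libraries did not deviate together (correlations of -0.0067, -0.0045 and -0.0096). With a replicate block the counts were 1071 and 1506 after bleo, 10 and 503 in vehicle and 1440 and 1201 for the interaction. Genes of a few counts, such as *Hey2* or *Ighe*, are limited by depth.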
